A study of Mus musculus with 156 samples.

Results

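The cytosolic ribosomal protein genes were followed over RNA-seq time courses in mouse embryonic stem cells. Members were all genes whose symbol was Rpl or Rps followed by a number, with Rpsa, Rplp0, Rplp1 and Rplp2, leaving out names with -ps (named pseudogenes, 8 in the table), the kinases of the Rps6k family and Rps19bp1. The paralogs Rpl39l, Rpl22l1, Rpl3l and Rps27l were kept apart. This left 82 members of 40914 genes, 49 of the large (60S) and 33 of the small (40S) ribosomal subunit, and the 4 paralogs. The choice used names only and no measured value.

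Each cytosolic ribosome holds a copy of each ribosomal protein, so the cell makes the proteins in matched amounts together with ribosomal RNA. The mRNAs are short, abundant and stable, and most start with a run of pyrimidines, the terminal oligopyrimidine (TOP) tract, through which mTOR and the RNA-binding protein LARP1 set their translation and storage. Fast-dividing cells such as embryonic stem cells need high ribosome production. The genes also have many processed copies in the genome, and most of these copies are silent pseudogenes.

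The samples came from 4 lines. A wild-type line (WT control) and a line knocked out for the long noncoding RNA Firre (KO control) each had a genetically matched line with a doxycycline-inducible Firre transgene (WT transgene, KO transgene). All lines grew feeder-free on gelatin in medium with serum, LIF and 2 inhibitors, PD0325901 against MEK and CHIR99021 against GSK3. The long course held samples of 0, 720, 1440, 2880 and 5760 min in triplicate, and the short course held samples every 30 min up to 330 min (12 times) in duplicate. The 156 libraries formed 68 groups. Control lines received doxycycline too, and 0 min is before it, so doxycycline, older medium and longer culture cannot be told apart in a change with time in a control line. How many clones a line stands for, the promoter of the transgene and what separates the replicates are not given in the sources used here. The p-values therefore measure only the spread between these samples, which may be technical. In such bulk RNA, fewer cells of a type and less RNA per cell cannot be told apart.

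Long-course libraries held 18961799 to 47948630 counts and short-course libraries 19013652 to 37195019. Firre was at 24.2 ± 0.582 TPM (abundance scaled by transcript length and library; SD, n = 3) in the WT control and 0.39 ± 0.142 in the KO control at 0 min, and rose from 0.895 to 49.4 TPM in the KO transgene by 720 min. The stem cell markers Pou5f1 (791 to 1250 TPM) and Nanog (548 to 751 TPM) were high in every library, while 6 fibroblast or feeder markers summed to 1.49 to 6.03 TPM, with Col3a1 and Postn at a median of 0. The library WT control 1440 min replicate 3 stood apart in the small structural RNA gene Rn7s1, at 1540 TPM, while its fellow replicates had 14.6 and 21.9 TPM. No count of members that moved in the long course changed by more than 1.5 times without it.

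Rps27 and Rps27rt are shown because their identical letters decide how their values can be read. Rps27 is a small-subunit protein gene with introns at chr3:90212522-90213651 on the minus strand, and Rps27rt is a copy at chr9:114982366-114982739 on the minus strand (mm10, GENCODE M21). The coding sequences, with 255 bases each, had no mismatch.
Rps27: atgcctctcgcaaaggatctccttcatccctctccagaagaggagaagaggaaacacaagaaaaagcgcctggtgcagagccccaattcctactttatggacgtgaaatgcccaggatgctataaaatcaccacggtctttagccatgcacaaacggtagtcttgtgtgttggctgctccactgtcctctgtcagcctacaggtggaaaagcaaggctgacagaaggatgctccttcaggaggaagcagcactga
Rps27rt: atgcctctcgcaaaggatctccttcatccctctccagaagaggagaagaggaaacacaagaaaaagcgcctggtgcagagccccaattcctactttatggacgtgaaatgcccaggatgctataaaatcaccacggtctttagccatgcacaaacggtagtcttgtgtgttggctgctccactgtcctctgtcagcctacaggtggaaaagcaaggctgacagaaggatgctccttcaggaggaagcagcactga
Rpl39 and Rpl39l are shown as the contrasting case, a paralog pair that reads can separate. Rpl39, which lines the exit tunnel of the large subunit, lies at chrX:37082520-37085402 on the minus strand, and Rpl39l, a paralog known from male germ cells, at chr16:10170226-10174911 on the plus strand. Of 156 coding bases 133 were identical (85.3%), and capitals mark the 23 mismatches.
Rpl39: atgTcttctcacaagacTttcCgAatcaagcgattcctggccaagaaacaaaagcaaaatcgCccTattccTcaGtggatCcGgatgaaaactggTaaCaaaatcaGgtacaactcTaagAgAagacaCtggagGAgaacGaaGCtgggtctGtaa
Rpl39l: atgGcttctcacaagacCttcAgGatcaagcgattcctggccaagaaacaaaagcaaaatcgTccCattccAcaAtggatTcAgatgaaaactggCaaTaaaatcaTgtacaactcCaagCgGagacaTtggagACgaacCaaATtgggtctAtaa

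The 30-base windows below, 15 bases on either side of the annotated start, were chosen because they hold the letters CTTTC, used as a simple stand-in for a TOP start (RefSeq, GRCm38.p6). Capitals mark these letters, which lie before, at or after the start.
Rpl13a (chr7:45128731-45128760, minus strand): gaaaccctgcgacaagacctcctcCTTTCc
Rps15a (chr7:118116133-118116162, minus strand): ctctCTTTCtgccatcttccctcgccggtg
Rpl13 (chr8:123102335-123102364, plus strand): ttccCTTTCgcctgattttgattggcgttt
Rpl18 (chr7:45718056-45718085, plus strand): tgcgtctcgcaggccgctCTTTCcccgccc
Rps27rt (chr9:114982725-114982754, minus strand): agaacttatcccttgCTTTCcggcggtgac
RefSeq start windows were at hand for 62 of the members. Within 50 bases either side of the start, CTTTC lay on the strand of the gene in 34 of the 62 members (54.8%), against 3934 of 27025 genes in the table (14.6%). On the opposite strand the shares were 11.3% and 13.8%. A match is a description of letters and does not show that a start is used.

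Most members were among the most abundant mRNAs of these cells. Together they took 7.54 to 9.6% of the counts of a long-course library (median 8.37%) and 6.76 to 8.46% in the short course (median 7.57%), and 16.5 to 20.7% of the full TPM scale (deposited genes sum to 924452 to 947484 TPM), a measure per transcript length on which short mRNAs weigh more. The mean over all libraries exceeded 1000 TPM for 73 members, with a median of 2110 TPM. Rplp1, an acidic stalk protein of the large subunit, led with 6730 TPM (4780 to 8250 over libraries). It was followed by Rpl13a (6130), Rps12 (4810), Rps29 (4530) and Rps2 (4480). The lowest 5 members were Rpl7l1 (221), Rpl12 (159), Rpl5 (124), Rpl10l (32.2) and Rps23rg1 (7.5). Of these, Rpl10l and Rpl7l1 are paralogs that the naming rule keeps, and Rps23rg1 is a retrogene-derived locus at chr8:3567990-3584939 on the plus strand. Rpl5 and Rpl12 encode proteins found in every ribosome. Rpl5 shared 50.4% of its 31-base words with other annotated genes, and Rpl12 shared 19.8%. Rplp1, the highest member, shared 75.1%. The part of such sharing in these levels was not tested.

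Levels of most members stayed within 2 times between libraries, and no such value is given here for other genes. The coefficient of variation over all 156 libraries had a median of 7.92%, and 74 of 82 members had a highest value under 2 times the lowest, with a median ratio of 1.46. The widest ranges were those of Rps27 (129 to 3220 TPM), Rps23rg1 (3.48 to 17.8 TPM) and Rps27rt (1050 to 3630 TPM). Rpl7l1 was among the steadiest, at 200 to 254 TPM, a ratio of 1.27.

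**Figure D1:**
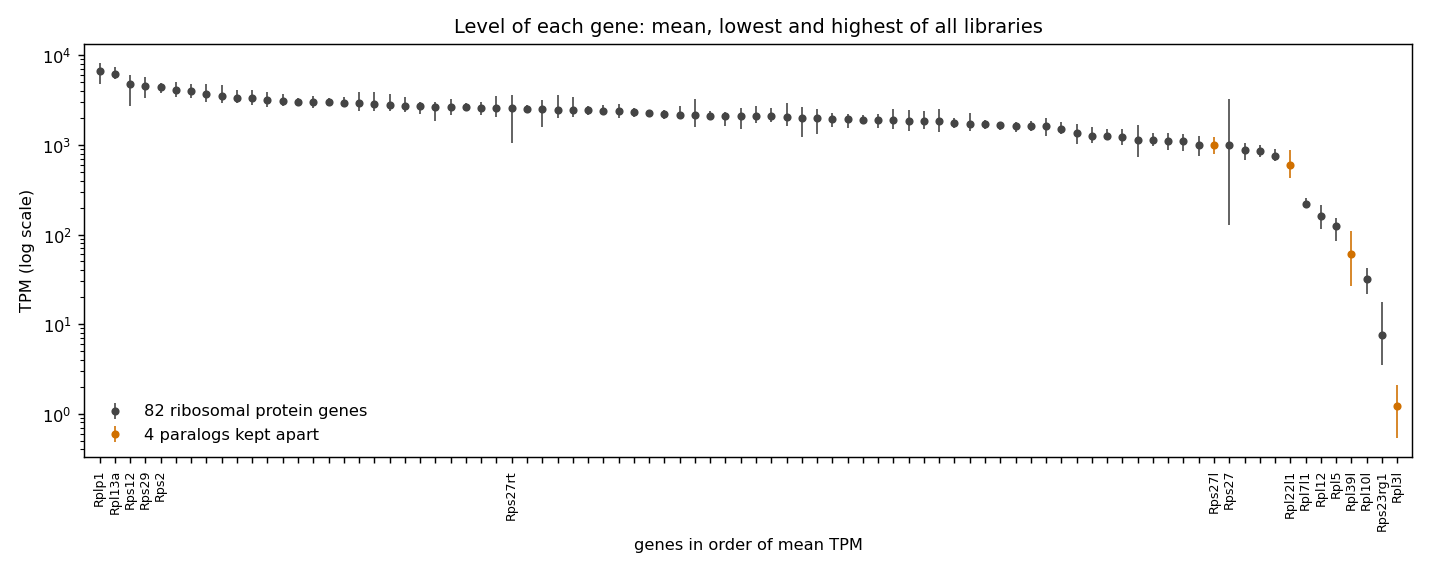
Level of the 82 members and 4 paralogs in TPM on a log axis, ordered by mean. Genes stand along the x axis, with names for the 5 highest and 5 lowest members, the paralogs, Rps27 and Rps27rt. Points are means over the 156 libraries and bars run from the lowest to the highest library. 73 members lie above 1000 TPM, and Rps27 has the longest bar, from 129 to 3220 TPM.

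Members moved together from library to library. Over the 60 long-course libraries, the correlation of a member's log2 level with the mean of the other members had a median of 0.8, and 64 members exceeded 0.5, as did 12.4% of other genes, whose median was -0.01. In the short course the median was 0.75, with 71 members and 3.71% of other genes over 0.5. These correlations describe libraries that share depth, scaling and groups. Rpl37a (0.96) and Rps3 (0.95) were among those that followed the mean most closely in the long course, and Rps23rg1 (-0.69), Rpl5 (-0.23), Rpl38 (-0.18) and Rpl19 (-0.09) ran against it. Of these 4, Rpl19 and Rpl38 lie on chromosome 11, to which the comparison of genotypes returns.

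Loss of Firre was compared first, as KO control against WT control at 0 min. In the long course most members differed slightly downwards. With edgeR (adjusted p under 0.05), 28 members were lower and 9 higher in the KO control, where 35.1% of all genes tested were called, and the median log2 fold change was -0.09 (all genes -0.01). Rps2, a core protein of the small subunit at chr17:24718116-24721929, had 2780, 2870 and 2860 CPM (counts scaled by library total, with TMM factors) in the WT control and 2590, 2510 and 2440 in the KO control. All 3 KO libraries lay below all 3 WT libraries, and the log2 fold change was -0.17 ± 0.0288 (SE; edgeR adjusted p 7.74e-07). Rpsa, also the laminin receptor, had 2770, 2730 and 2800 CPM in WT and 2480, 2360 and 2580 in KO (log2 fold change -0.16 ± 0.0308, edgeR adjusted p 8.56e-06). Rps3, at the mRNA entry site of the 40S subunit, had 1680, 1650 and 1690 CPM in WT and 1460, 1440 and 1560 in KO (-0.17 ± 0.0326, edgeR adjusted p 1.49e-05). The groups did not overlap for either gene. Rplp2 (-0.14, edgeR adjusted p 0.000131) and Rps3a1 (-0.14, edgeR adjusted p 0.000196) completed the 5 with the smallest adjusted p. By subunit, 13 of 49 large subunit members were lower and 7 higher, and 15 of 33 small subunit members were lower and 2 higher. Without the libraries numbered 1 or 2, the members called were 23 and 24 in place of 37. Sums of marker genes differed too: the 8 stem cell markers summed to 8250 to 8330 TPM in the WT control and 7090 to 7260 in the KO control, and the 4 neuroectoderm markers to 50.5 to 53.7 and 62.5 to 66.1. Over all libraries Dppa5a, at 4250 to 7170 TPM, was the largest term of the stem cell sum. Tubb3, at 25.7 to 72.5 TPM, was that of the neuroectoderm sum. The part of these sums in the result was not tested.

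The members that were higher in the KO control were mostly on chromosome 11. Rpl19, Rpl23, Rpl23a, Rpl26, Rpl27, Rpl38 and Rps27a are all the members there, and all 7 passed, with a median log2 fold change of 0.32. Rpl26, a protein near the exit tunnel that also binds p53 mRNA, lies at chr11:68901583-68906989. Its 885, 860 and 882 CPM in the WT control stood against 1130, 1130 and 1220 in the KO control, without overlap (log2 fold change 0.40 ± 0.036, edgeR adjusted p 5.35e-15). Rpl19, on a bridge between the subunits, had 1400, 1400 and 1430 CPM in WT and 1820, 1780 and 1850 in KO (0.37 ± 0.0331, edgeR adjusted p 2.04e-15). Rpl38, a small protein linked to the translation of Hox mRNAs, had 371, 351 and 357 CPM in WT and 463, 457 and 492 in KO. Of the 75 members elsewhere, 28 were lower, and the 2 that were higher were Rps23rg1 and Rpl36al. Rps23rg1 had 5.46, 4.95 and 5.28 CPM in WT and 8.72, 10.1 and 10.4 in KO (0.89 ± 0.1, edgeR adjusted p 6.36e-12), and Rpl36al was 0.12 ± 0.0387 higher (edgeR adjusted p 0.00976).

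Other genes of chromosome 11 were higher as well, with a median above that of the members there. Among 1279 other tested genes on it, 1158 (90.5%) had a log2 fold change above 0 and the median was 0.39. Among 16200 other genes elsewhere the median was -0.03 and 44.0% were above 0. The median of the other chromosome 11 genes was 0.39, 0.39, 0.23, 0.24 and 0.28 at 0, 720, 1440, 2880 and 5760 min, and 7, 7, 6, 4 and 5 of the 7 members passed at these times. The transgene lines differed from their own controls by a median of -0.06 on this chromosome at 0 min in either background. Splitting the genes by chromosome was done after their values were seen, and what underlies the difference was not tested. In the short course, averaged over the 12 times, the other genes of chromosome 11 had a median of 0.08 in the KO control against the WT control, with 75.4% of 1282 above 0.

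**Figure D2:**
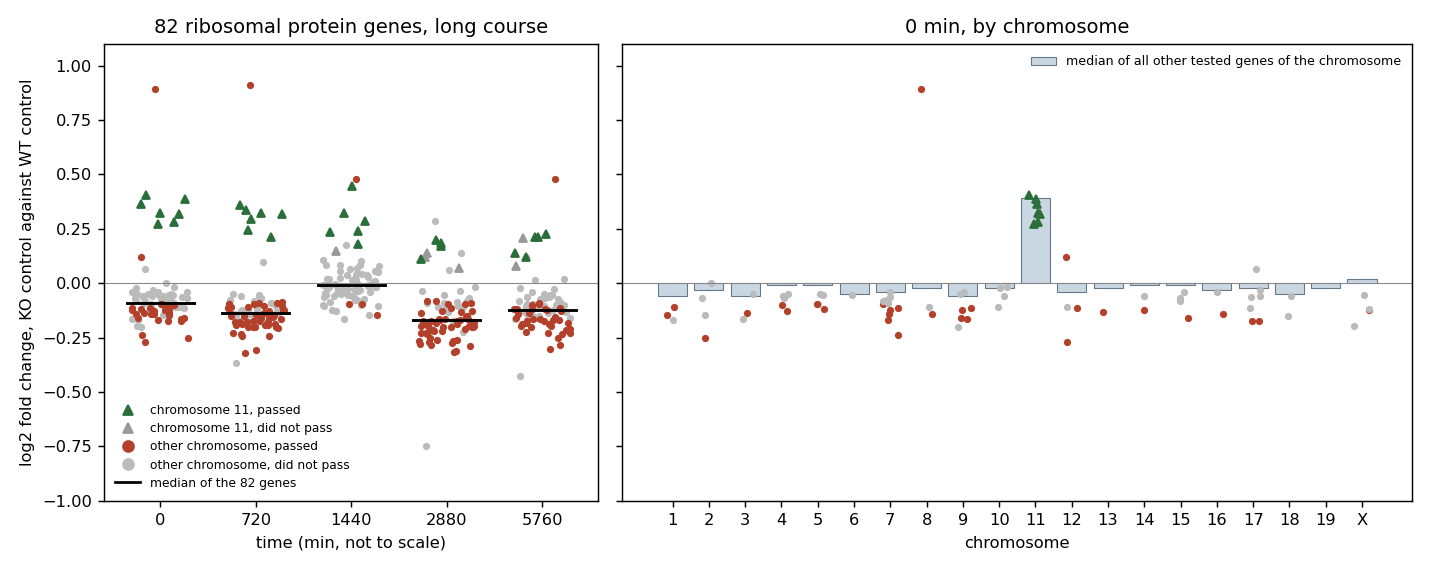
Log2 fold change of members, KO control against WT control, long course. The left panel shows each member at each time (min), with triangles for chromosome 11, colour where edgeR adjusted p was under 0.05 and black bars at the members' median. The right panel shows members at 0 min by chromosome, with bars at the median of the other genes. The 7 members on chromosome 11 lie above 0 beside a chromosome median of 0.39, and most others lie below 0.

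At later times the genotypes differed in the same direction except at 1440 min. At 720 min 47 members were lower in the KO control and 8 higher (34.4% of all genes called), at 2880 min 54 and 4 (20.5%), and at 5760 min 36 and 6 (23.0%). At 1440 min 3 members were lower and 7 higher (17.2%), and the median over members was -0.01. As a mean over the 5 times, 66 members were lower and 8 higher (52.2% of all genes called), with a median of -0.11. Rplp2 showed the smallest adjusted p among the lower members, with -0.19 ± 0.0137 (edgeR adjusted p 5.59e-21). On the TPM scale, limma on log2(TPM + 1) called 34 members lower and 9 higher at 0 min (22.6% of all genes called) and 52 lower and 8 higher over the mean of the times (41.5%). Over all 82 members the median at 0 min was -0.09 on counts and -0.11 on TPM, and over the 75 members off chromosome 11 it was -0.10 on counts. The members' TPM values were not split by chromosome. For the other genes of chromosome 11 the median on log2(TPM + 1) was 0.31, 0.34, 0.21, 0.25 and 0.25 at 0, 720, 1440, 2880 and 5760 min.

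The short course, made from other libraries, did not show the same difference. At 0 min, 1 member, Rplp2, passed (7.51% of all genes called; 13 members had an unadjusted p under 0.05), at -0.35 ± 0.11 (edgeR adjusted p 0.0363). Averaged over its 12 times, 8 members were lower and 22 higher in the KO control (45.7% of all genes called), and 6 of the 7 members on chromosome 11 were among the higher ones. Rplp2 was lower again (-0.21 ± 0.0317, edgeR adjusted p 2.1e-07), and Rpl38 (0.29, edgeR adjusted p 2.43e-08), Rpl23 (0.20) and Rpl26 (0.14) were higher. On TPM, limma called 28 members lower and 23 higher in the same average (43.1% of all genes called). The replicate number moved with the members in these libraries. In the KO control their share of counts was 6.76 to 7.67% over the 12 libraries numbered 1 and 7.82 to 8.26% over those numbered 2, without overlap. In the KO transgene these ranges were 7.08 to 7.74% and 7.82 to 8.46%, also without overlap. In the WT control they were 7.52 to 8.16% and 7.29 to 7.57%, and in the WT transgene 7.14 to 7.7% and 7.45 to 8.11%. The part of this in the comparison of genotypes was not tested.

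Over the long course the members' share of counts was highest at 2880 min in all 4 lines, and so was their share of the full TPM scale. Tested singly on TPM, members passed in either direction. The share of counts in the WT control was 8.53 ± 0.0721% at 0 min (SD, n = 3), 8.24 ± 0.222% at 720, 8.09 ± 0.26% at 1440, 9.46 ± 0.201% at 2880 and 8.97 ± 0.14% at 5760 min. In the WT transgene the share went from 8.47 ± 0.189% to 9.32 ± 0.0839% at 2880 min. The KO control went from 8.16 ± 0.197% through 7.73 ± 0.177% at 720 to 8.76 ± 0.0681% at 2880 min. The KO transgene reached 8.79 ± 0.168% from 8.24 ± 0.263%. The 3 libraries of 2880 min lay above those of 0 min without overlap in every line. On the full TPM scale the members' share was 19.2 to 19.4% at 0 min and 20.3 to 20.7% at 2880 min in the WT control. It was 19.0 to 19.5% and then 20.3% in the WT transgene, and 18.0 to 18.8% and then 19.3 to 19.5% in the KO control. In the KO transgene 17.9 to 18.7% became 19.1 to 19.7%.

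Marker sums moved over the same interval. The 8 stem cell markers together stood at 8250 to 8330 TPM (lowest and highest of 3 libraries) at 0 min and at 9370 to 9460 at 2880 min in the WT control. The KO control had 7090 to 7260 TPM and then 9170 to 9390. In the WT transgene 8230 to 8440 became 9710 to 9850, and in the KO transgene 6710 to 7140 became 8180 to 8430. The 4 neuroectoderm markers summed to 50.5 to 53.7 and then 32.5 to 36.9 TPM in the WT control, and to 62.5 to 66.1 and then 41.4 to 42.3 in the KO control, most of it Tubb3. They were lower at 2880 min in the transgene lines too, without overlap. The 6 trophoblast markers were at 28.8 to 31.4 and then 36.7 to 39.2 TPM in the WT control, and at 26.1 to 27.6 and then 37 to 39.1 in the WT transgene. They were at 26.7 to 28.2 and then 42 to 44.2 in the KO control, and at 27.2 to 28.5 and then 70 to 71.3 in the KO transgene. Markers of fibroblasts or feeders, primitive endoderm and mesoderm summed to at most 3.8, 5.87 and 4.76 TPM in any long-course library. Single genes weighed heavily in these sums. Over all libraries Dppa5a, at 4250 to 7170 TPM, was the largest term of the stem cell sum. Among the trophoblast markers Krt18 ranged most, at 4.2 to 48.8 TPM. A sum therefore does not show that the markers of a list moved together. The part of these sums in the change of the members was not tested.

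**Figure D3:**
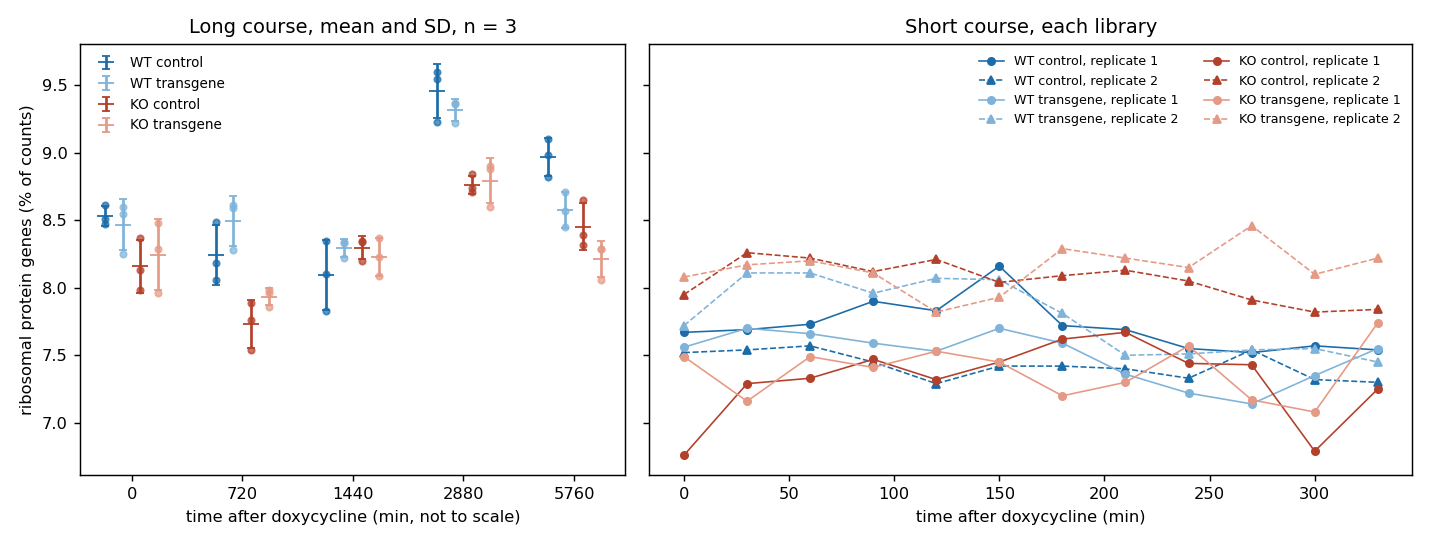
Share of all counts (%) that the 82 members took, against time after doxycycline (min). The left panel shows the long course, with points for libraries and bars for the mean and SD of 3, and the right panel each library of the short course. The long-course means are highest at 2880 min in each line, for example 9.46% in the WT control against 8.53% at 0 min, and the KO lines of the short course separate by replicate number.

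Against 0 min, 59 members were higher and 1 lower at 2880 min in the WT control (38.4% of all genes called), 55 and 5 in the WT transgene (40.8%), 48 and 5 in the KO control (47.6%) and 50 and 4 in the KO transgene (45.7%). Median log2 fold changes over members were 0.23, 0.19, 0.15 and 0.16, where the median over all genes lay within 0.01 of 0. In the WT control 27 of 33 small subunit members (median 0.29) and 32 of 49 large subunit members (median 0.19) were higher. In the KO control the counts were 26 (median 0.22) and 22 (median 0.09). The direction of single members and the size were tied to the scale. With limma on log2(TPM + 1), 26 members were higher and 15 lower in the WT control (38.7% of all genes called), 30 and 17 in the WT transgene (38.1%), 27 and 16 in the KO control (41.9%) and 24 and 14 in the KO transgene (41.0%). The medians of the members on that scale were 0.05, 0.02, 0.04 and 0.05, and those of all genes were -0.12, -0.08, -0.06 and -0.07. Relative to all genes the members were thus 0.16, 0.10, 0.10 and 0.12 higher on TPM, against 0.24, 0.19, 0.16 and 0.17 on counts. With libraries scaled by their totals in place of TMM, edgeR called 48 members higher and 5 lower in the WT control and 41 and 8 in the KO control.

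Rplp2, an acidic stalk protein that recruits translation factors (chr7:141447370-141451585, plus strand), rose most clearly. It had 492, 521 and 493 CPM at 0 min and 725, 756 and 743 at 2880 min in the WT control, without overlap, which is 0.56 ± 0.0308 on the log2 scale (edgeR adjusted p 6.36e-26). In the KO control 463, 449 and 454 CPM became 644, 609 and 599 (0.44 ± 0.0308, edgeR adjusted p 5.53e-21). Its rise was called on TPM too, by 0.32 ± 0.0363 in the WT control (limma adjusted p 1.42e-09). Rps4x, the X-linked small-subunit protein (chrX:102184941-102189394, minus strand), went from 1830, 1760 and 1830 CPM to 2320, 2420 and 2490 in the WT control and from 1620, 1630 and 1730 to 2030, 2160 and 2250 in the KO control. The log2 fold changes were 0.41 (edgeR adjusted p 3.51e-19) and 0.37 (edgeR adjusted p 1.82e-17), and 0.26 and 0.27 on TPM. Rpl32, a large-subunit protein (chr6:115805505-115808747, minus strand), rose from 1120, 1050 and 1080 to 1410, 1440 and 1470 CPM in the WT control (0.41, edgeR adjusted p 1.55e-17; 0.24 on TPM).

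Rps20, of the head of the small subunit (chr4:3831334-3835665, minus strand), depended on the scale. Its 976, 951 and 991 CPM in the WT control became 1240, 1290 and 1310 (0.40 ± 0.0309, edgeR adjusted p 3.93e-18), while its deposited TPM were 1990, 1790 and 1810 at 0 min and 1900, 1810 and 1920 at 2880 min, which overlap. On log2(TPM + 1) its change was 0.01 ± 0.0874 by limma.

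Rpl5, which binds 5S ribosomal RNA and, with Rpl11, MDM2 (chr5:107900502-107909005, plus strand), fell at 2880 min, when most members were higher on counts. In the WT control 103, 96.3 and 101 CPM became 79.4, 81.7 and 82.8 at 2880 min (-0.30 ± 0.0518, edgeR adjusted p 3.9e-06), and in the KO control 89.5, 93.3 and 98.8 became 66.3, 71.3 and 74.5 (-0.41 ± 0.0517, edgeR adjusted p 3.09e-09). On TPM the means went from 147 to 97.3 and from 134 to 89.8, so Rpl5 fell on either scale. Its partner Rpl11 had log2 fold changes of 0.09 (edgeR adjusted p 0.299) and -0.05 (edgeR adjusted p 0.549). Rps23rg1 fell in the KO control, from 8.72, 10.1 and 10.4 CPM to 3.96, 4.88 and 5.62 (-1.02 ± 0.104, edgeR adjusted p 1.56e-13), to about the level of the WT control at 0 min. In the KO control Rpl38 (-0.27, edgeR adjusted p 0.000244), Rps27rt (-0.94 ± 0.316, edgeR adjusted p 0.0122) and Rpl19 (-0.09, edgeR adjusted p 0.0262) were the other members lower at 2880 min. Rpl19 and Rpl38 lie on chromosome 11, whose other genes had a median change of -0.21 there.

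**Figure D4:**
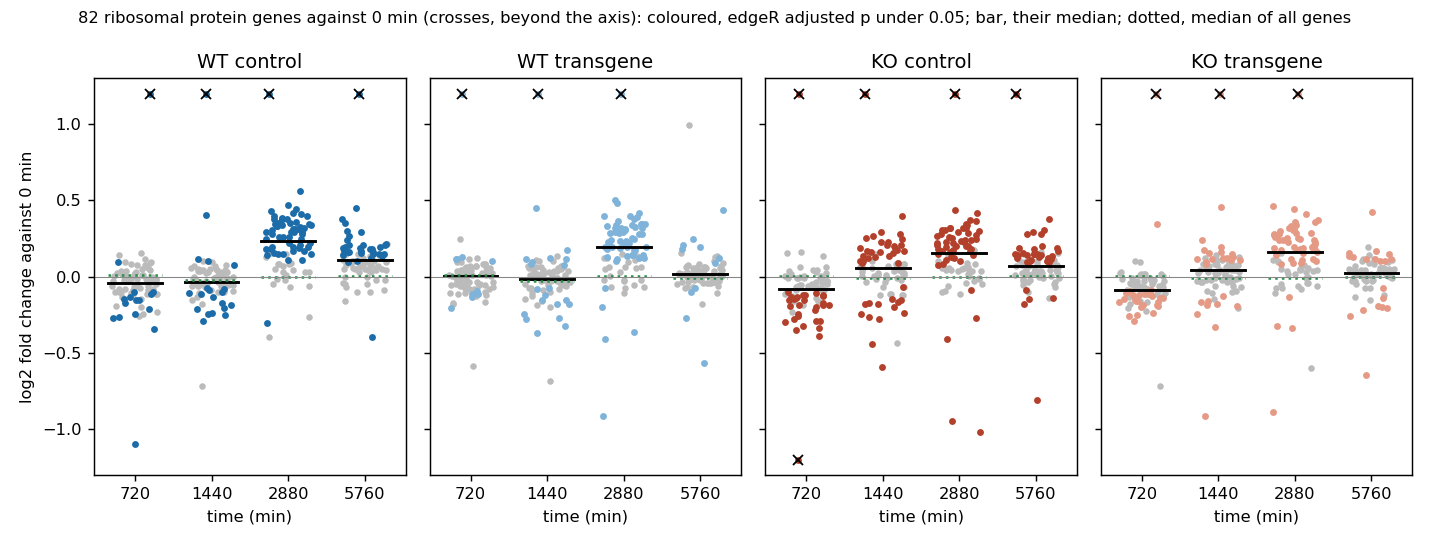
Change of the members with time in the long course, by line, as log2 fold change from 0 min. Points are members, coloured where edgeR adjusted p was under 0.05, crosses lie beyond the axis, black bars are the median of the members and dotted lines that of all genes. The members' median reaches 0.23 at 2880 min in the WT control and 0.15 in the KO control, beside an all-gene median near 0.

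The lines differed in when members were called higher on counts. Between 0 and 720 min 14 members fell and 2 rose in the WT control (4.83% of all genes called), 5 and 5 in the WT transgene (9.22%), 30 and 1 in the KO control (8.84%) and 25 and 2 in the KO transgene (11.5%). From 720 to 1440 min 49 members rose in the KO control (38.5%) and 44 in the KO transgene (39.4%), against 5 (30.5%) and 6 (41.8%) in the control and transgene lines of the WT background. From 1440 to 2880 min 70 members rose in the WT control, where 15.3% of all genes were called, and 57 in the WT transgene (20.3%). In the same step 21 rose in the KO control (2.32%) and 34 in the KO transgene (6.82%). From 2880 to 5760 min members fell, 42 in the WT control (17.8%), 46 in the WT transgene (27.4%), 29 in the KO control (19.1%) and 39 in the KO transgene (17.8%). The difference in timing between the backgrounds is a description of counts and was not tested as such, beyond the comparison of genotypes at each time. On log2(TPM + 1), limma called 19 members higher and 7 lower from 720 to 1440 min in the KO control (30.1% of all genes called) and 6 and 7 in the KO transgene (31.6%). It called 2 and 14 in the WT control (22.5%) and 4 and 6 in the WT transgene (28.9%). From 1440 to 2880 min it called 39 higher in the WT control (15.6%), 23 in the WT transgene (13.5%), 3 in the KO control (1.19%) and 16 in the KO transgene (4.85%). From 2880 to 5760 min limma called 20 lower and 9 higher in the WT control (17.9%) and 25 and 14 in the WT transgene (24.4%). In that step it called 22 lower and 10 higher in the KO control (18.8%) and 28 and 7 in the KO transgene (18.9%).

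Over the 4 changes from 0 min together, 59 members passed with the largest change upwards and 21 with it downwards in the WT control (54.8% of all genes called), and 46 and 30 in the KO control (59.6%). On the WT side the smallest adjusted p were those of Rplp2, Rps20, Rps4x, Rpl32 and Rps7 (0.28 at 2880 min, edgeR adjusted p 3.69e-18). Members with the largest change downwards included Rpl13 (-0.25 ± 0.0528 at 720 min, edgeR adjusted p 3.57e-07) and Rps16 (-0.23 at 720 min, edgeR adjusted p 1.74e-06). In the KO control Rplp0 (-0.16 at 720 min, edgeR adjusted p 1.29e-10) and Rpl6 (-0.12 at 720 min, edgeR adjusted p 2.04e-08) were the like cases, and Rps2 (0.20) and Rpsa (0.27) had their largest change upwards at 2880 min. Without the libraries numbered 2 or 3 the largest change of Rps16 was upwards (0.21 and 0.25), as was that of Rpl6 without those numbered 1 (0.12). That of Rps2 in the KO control was downwards without those numbered 3 (-0.19). On log2(TPM + 1) limma gave 30 members upwards and 44 downwards in the WT control (57.8% of all genes called) and 34 and 33 in the KO control (59.7%), and the largest changes of Rps7 (-0.12 in the WT control) and Rplp0 (0.08 in the KO control) turned sign.

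Before doxycycline, few members differed between a transgene line and its control. The KO transgene differed from the KO control in 0 members by edgeR (3.54% of all genes called; 1 member with an unadjusted p under 0.05; 0 by DESeq2). The WT transgene differed from the WT control in 4 (13.2%), and in 1 without any of the replicate numbers. Of these, Rps23rg1 (5.46, 4.95 and 5.28 CPM in the control, 6.61, 6.55 and 6.89 in the transgene line), Rpl36al and Rpl13a were higher, and Rpl10l (22.8, 23.1 and 23 against 18.5, 19.3 and 20.8 CPM; -0.23 ± 0.062, edgeR adjusted p 0.00656) was lower. Responses compare how far a transgene line and its control moved from their own values at 0 min. In the KO background (rescue) 0 members responded by edgeR (11.5% of all genes called; 2 members with an unadjusted p under 0.05; 0 by DESeq2).

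In the WT background (overexpression) 19 members responded downwards and 1, Rpl26, upwards (9.79% of all genes called), and the falls were largest at 5760 min, where 12 were lower (8.23%). At 5760 min Rpl32 had 1220, 1290 and 1250 CPM in the WT control, up from 1120, 1050 and 1080 at 0 min. In the WT transgene it had 1140, 1100 and 1130 CPM at 5760 min and 1150, 1100 and 1130 at 0 min. Its groups did not overlap at 5760 min, and the response there was -0.21 ± 0.0468. The edgeR adjusted p of its test over the 4 times together was 0.000153. Rpl30, a large-subunit protein, had 861, 944 and 915 CPM in the control and 816, 784 and 780 in the transgene line at 5760 min. Its response there was -0.25 ± 0.0592 (edgeR adjusted p 0.00106 over the 4 times together). Rps7, Rps25 and Rps3a1 followed, at -0.17, -0.23 and -0.17. For Rpl32 the level of the transgene line at 5760 min was near its own at 0 min, while the control was higher. Other short genes, with a ratio of counts to TPM no higher than that of the median member, moved as well. With each gene taken at its largest response, the median was -0.12 for 1043 of them, -0.11 for the members and -0.05 for all genes. At 5760 min these medians were -0.07, -0.10 and -0.01. For the mean response over the times after 0 min they were -0.029, -0.018 and -0.003. On log2(TPM + 1) the medians at the largest response were 0.05, 0.01 and 0.08. The part of length in the response was not tested. These calls rested on the scale and on single replicates. On log2(TPM + 1) limma called 0 members lower and 1 higher (3.88% of all genes called; 18 members with an unadjusted p under 0.05), and edgeR called 13, 0 and 7 without the libraries numbered 1, 2 and 3. Scaled by library totals, edgeR gave 11 lower and 5 higher. The difference between rescue and overexpression passed for 1 member, Rpl36al (5.32% of all genes called), and for 0 members without the libraries numbered 2 or 3.

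In the first hours few members passed by edgeR, and the counts depended on the fit. Before doxycycline the transgene lines of the short course differed from their controls in 0 members by edgeR (0.161% of all genes called in the KO background and 3 members with an unadjusted p under 0.05; 2.93% and 2 in the WT background; 0 in either by DESeq2). Over 330 min 2 members passed in the WT control (21.8% of all genes called), Rpl12 (mean change -0.11, edgeR adjusted p 0.00366) and Rpl5 (-0.07, edgeR adjusted p 0.0454), and 2 in the KO control (13.3%), Rps23rg1 (-0.35 ± 0.125, edgeR adjusted p 0.00345) and Rpl5 (-0.16 ± 0.0414, edgeR adjusted p 0.0322). Rpl5 was thus lower after 0 min in both controls of both courses, although the value of the short WT control turned to 0.03 without the libraries numbered 2, as that of Rpl12 turned to 0.04. With a replicate block within each line, chosen after seeing the data, 8 members passed in the WT control (1 higher, 7 lower) and 33 in the KO control (30 higher, 3 lower). With a single replicate number, 4 and 11 members passed in the WT control and 2 and 9 in the KO control without numbers 1 and 2. The rescue passed for 0 members by edgeR (1.82% of all genes called; 2 with an unadjusted p under 0.05; 1 by DESeq2) and the overexpression for 0 (0.7%; 8 with an unadjusted p under 0.05; 0 by DESeq2), but for 37 without the libraries numbered 1 and 0 without those numbered 2.

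Rps27 and Rps27rt, whose coding letters are identical, moved in opposite directions in the same libraries. In the WT control Rps27 had 247, 287 and 257 TPM at 0 min and 1560, 2990 and 2300 at 720 min, while Rps27rt had 3470, 3590 and 3620 and then 2240, 1130 and 1850. Replicates of a group also traded one for the other. In the KO transgene at 1440 min Rps27 was at 2560, 427 and 361 TPM and Rps27rt at 1570, 3190 and 3380. Rps27rt shared 91.6% of its 31-base words with Rps27, and Rps27 shared 27.4% of its own with Rps27rt. The sum of the pair was far steadier, with 3820 ± 89.9 TPM at 0 min, 4020 ± 196 at 720, 3880 ± 203 at 1440, 4550 ± 181 at 2880 and 3990 ± 110 at 5760 min in the WT control (SD, n = 3). In the KO control the sum was 3330 ± 33.9, 3560 ± 34, 3820 ± 116, 4180 ± 189 and 3660 ± 121 TPM. The log2 fold change of Rps27 at 2880 min, 2.94 ± 0.641 in the WT control (edgeR adjusted p 0.000253), therefore concerns a gene whose coding reads cannot be told apart from those of its copy, and is uncertain.

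**Figure D5:**
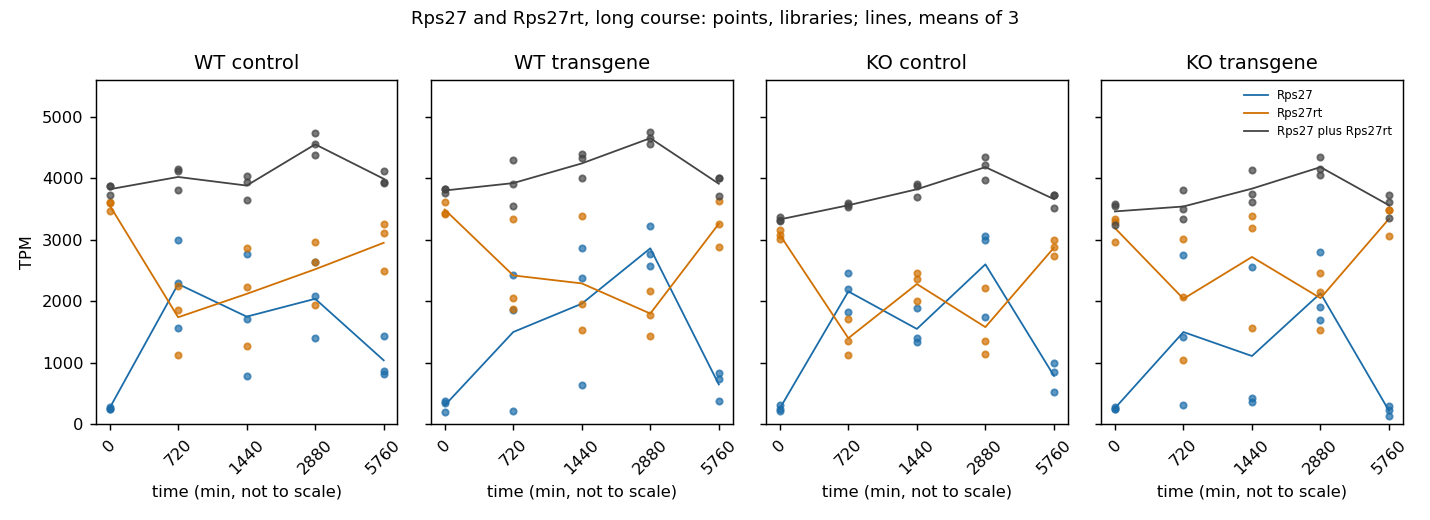
TPM of Rps27, of its copy Rps27rt and of their sum against time (min) in the long course, by line. Points are libraries and lines join the means of 3. The copies trade places between replicates, as in the KO transgene at 1440 min (2560 against 427 and 361 TPM for Rps27), and the sum stays between 2570 and 4750 TPM over both courses.

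Such sharing was common among members. The median member shared 27.8% of its 31-base words with other annotated genes and 5.6% with other genes of the deposited table. For 31 members the share with other deposited genes was at least 10%. Rpl10, for example, shared 31.9% with Rpl10-ps3, which was deposited at 1956 TPM. In the deposited counts 4.68% of the members' values were exactly whole numbers, with a tolerance of 0, against 55.9% of all values above 0, many of which are of lower genes. Fractions can arise where an estimate splits reads between transcripts of different genes. The step from transcripts to genes is not given, and the part of sharing in these percentages was not tested.

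Of the 4 paralogs kept apart, Rpl39l varied most with line and time. At 0 min its level was 13.5, 13.5 and 14.9 CPM in the WT control but 23.5, 22.7 and 25.1 in the WT transgene. It was 11.9, 12.1 and 12.1 CPM in the KO control and 11.3, 10.5 and 12.6 in the KO transgene. The WT transgene stood above the 3 other lines without overlap, by 0.76 ± 0.0688 against its control (edgeR adjusted p 1.17e-14), before any doxycycline. At 1440 min the WT control had come up to 21.1, 25.4 and 24.1 CPM and the WT transgene was at 24.7, 26.5 and 25.9, while the KO control was at 11.2, 11.6 and 11 and the KO transgene rose to 16.5, 16.1 and 15.1. The rescue was 0.56 ± 0.107 at 1440 min (edgeR adjusted p 2.35e-07) and the overexpression -0.74 ± 0.0963 at 5760 min (edgeR adjusted p 1.84e-11). By limma on TPM these were 0.75 (adjusted p 0.000406) and -0.72 (adjusted p 5.29e-05). The adjusted p of these responses are of tests over the 4 times together, not of the time named. At 5760 min the WT lines lay together, at 21.8, 19.2 and 22 CPM in the control and 22.7, 20.5 and 21 in the transgene line. All values of Rpl39l counts were whole numbers, and Rpl39, at 2060 TPM on average, was higher by 0.39 (log2) in the WT control at 2880 min (edgeR adjusted p 0.000153).

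The other paralogs moved less. Rps27l, a p53 target, averaged 1010 TPM and was lower in the KO control at 0 min (-0.20, edgeR adjusted p 5.51e-06), with 1200, 1170 and 1210 TPM in WT and 999, 997 and 1080 in KO. Rpl22l1, the partner of Rpl22 in cross-regulation, averaged 602 TPM, and its log2 fold change at 2880 min in the WT control was 0.32 on counts (edgeR adjusted p 0.0184) and -0.21 on TPM. Rpl3l, a muscle paralog, was at 1.21 TPM on average. Of ribosomal proteins outside the naming rule, Rack1 lies on chromosome 11 and was higher in the KO control at 0 min (2380, 2410 and 2410 TPM in WT, 3020, 2930 and 3020 in KO; 0.33 ± 0.0265, edgeR adjusted p 7.7e-18). Fau (-0.11, edgeR adjusted p 0.263), which encodes a ribosomal protein fused to a ubiquitin-like protein, did not pass.

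Other genes around the ribosome gave a mixed picture, beside all-gene shares called of 35.1% in the KO comparison at 0 min and, with time, 54.8% in the WT control and 59.6% in the KO control. Of 15 translation factors and other genes of TOP mRNAs, 9 had their largest change upwards and 5 downwards with time in the WT control, and likewise 9 and 5 in the KO control, with Eef1g (0.36, edgeR adjusted p 8.76e-21) and Eif3f (0.34, edgeR adjusted p 1.03e-17) among the highest in WT. In the KO comparison at 0 min 1 was higher and 4 were lower. Of 30 genes of ribosome biogenesis, 7 rose and 16 fell with time in the WT control and 3 and 21 in the KO control. Utp20, of the small-subunit processome, was at -0.40 (edgeR adjusted p 1.89e-20) and Nolc1, a nucleolar phosphoprotein, at -0.36 (edgeR adjusted p 1.03e-15) in WT at 2880 min, when the members' share of counts was highest. Chromosome 11 holds 5 genes of ribosome biogenesis, all higher at 0 min in the KO control, among them Pes1 (0.45, edgeR adjusted p 1.41e-22).

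Of 15 genes of the mTOR and LARP1 axis, 8 rose and 4 fell with time in the WT control (54.8% of all genes called) and 8 and 3 in the KO control (59.6%). Ddit4, an inhibitor of mTORC1, was lower at 5760 min, at -0.62 in WT (edgeR adjusted p 2.35e-13) and -0.67 in KO (edgeR adjusted p 2.29e-12). Larp1 was 0.30 higher in WT at 1440 min (edgeR adjusted p 1.04e-10). These adjusted p are of the tests over the 4 times together. Larp1, Rps6kb1 and Rptor, the 3 on chromosome 11, were all higher at 0 min in the KO control. Of 7 snoRNA host genes, whose introns carry guides for ribosomal RNA modification and whose spliced RNAs also begin with a TOP tract, 6 were lower and 0 higher in the KO control at 0 min, led by Snhg1 (-0.47 ± 0.033, edgeR adjusted p 1.31e-20), Snhg8 (-0.41) and Gas5 (-0.29). In the short course, as a mean over its times, edgeR called 4 of the 7 snoRNA host genes higher in the KO control, Gas5 among them, and 0 lower (45.7% of all genes called). With time in the WT control 5 fell and 1 rose, and in the KO control 6 fell and 1 rose. Of 78 mitochondrial ribosomal proteins, 22 were higher and 3 lower in the KO control at 0 min, where 35.1% of all genes were called. All 11 on chromosome 11 were among the higher ones. With time 27 rose and 36 fell in the WT control (54.8% of all genes called) and 11 and 50 in the KO control (59.6%).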

How the data were processed

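Gene-level expected counts and TPM of 156 libraries and 40914 genes were deposited by the authors. The submitters' processing notes name Salmon 1.5.2 and mm10, and the step from transcripts to genes is not given in the sources used here. Expected counts, as deposited by the authors, were rounded to whole numbers for edgeR 4.0.16 (R 4.3.3) (filterByExpr with a minimum count of 10 and a minimum total of 15, TMM scaling, robust quasi-likelihood tests), which kept 17565 genes in the long and 18009 in the short course, all 82 members among them. Each group of the long course had its own coefficient. In the short course, change with time and responses used a natural cubic spline with 3 df per line. Adjusted p is Benjamini-Hochberg over all genes tested, with a threshold of 0.05. The size of a test over several times is, for the long course, that of the time with the largest change and, for the short course, the mean over times, with SE as that size over the square root of F. The adjusted p of such a test covers its times together, and not the time named with the size.

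The authors' deposited TPM, used for levels, were also tested as log2(TPM + 1) with limma 3.58.1, and DESeq2 1.42.0 was run as an alternative. Words of 31 bases and coding alignments (Biopython 1.88) came from GENCODE M21, start windows from RefSeq. Python 3.11.15 and pandas 2.3.3 made the summaries. Named genes were up to 5 members each way with the smallest adjusted p among those passing in a comparison, the 5 highest and 5 lowest members by TPM, the paralogs, Fau, Rack1 and Firre, and up to 3 passing genes each way of other lists; Rpl11, Rpl39 and the members of chromosome 11 were named after their values were seen. A few genes that this rule names are not reported here. The members, lists and tests were chosen with earlier results of these data known. In simulated counts for the long KO comparison at 0 min (17565 genes), 76.1% of changes of 0.3 on the log2 scale, 92.5% of 0.58 and 100% of 1 were recovered, and 7.25% of calls were false. For the short WT control over time (18009 genes) these were 58.2%, 95.5%, 100% and 7.65%. The simulation changed 67, 67 and 66 genes by these sizes, up or down, and left all others equal between groups. In the data far more genes were called, and genes of chromosome 11 were shifted one way. These rates therefore need not hold for the tests of the members.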

Additional observations from a re-analysis of the deposited data

Results flagged for a closer look

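The response of Rpl39l, transgene line against control, differed between the KO and WT backgrounds by a test of the difference itself. The rescue minus the overexpression was 1.2 on the log2 scale at 1440 min (SE 0.144, edgeR adjusted p 1.15e-13) and 1.35 ± 0.211 by limma on TPM (adjusted p 7.75e-07). These adjusted p are of tests over the times together, not of 1440 min alone. At 1440 min all 3 KO transgene libraries (16.5, 16.1 and 15.1 CPM) lay above all 3 KO control libraries (11.2, 11.6 and 11 CPM). In the WT background the control had risen by 1440 min to near the level of the transgene line, which had moved less. The WT transgene was already 0.76 above the WT control at 0 min, before doxycycline. The part of that start in the difference was not tested.

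Rpl36al was the only member whose response differed between the backgrounds in the same test (edgeR adjusted p 0.0161). Its largest difference was 0.24 ± 0.0775, at 2880 min. The adjusted p covers the times together, and edgeR called 0 members for this difference at 2880 min alone. Before doxycycline edgeR already called Rpl36al higher in the WT transgene than in the WT control, and the part of that start was not tested. At 2880 min it had 281, 294 and 291 CPM in the KO transgene against 274, 275 and 274 in the KO control. The WT transgene had 306, 303 and 301 CPM against 296, 308 and 312 in the WT control, which overlap. On TPM the difference was 0.31 (limma adjusted p 0.0649), which did not pass. In the test over the times together, edgeR called no member without the libraries numbered 2 or 3.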

How the results depend on the processing

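With 3 or 2 libraries per group, differences of a few percent are near what these data resolve. Of 262 recomputed counts of members, 210 stayed within 1.5 times. Leaving out a replicate number gave 23 to 31 members called for KO control against WT control at 0 min (main 37), 1 for WT transgene against control at 0 min (4), 0 to 2 for the long rescue (0), 0 to 13 for the long overexpression (20), 0 to 15 for it at 5760 min (12), 0 to 4 for the rescue minus the overexpression (1), 4 to 11 for the short WT control over time (2), 2 to 9 for the short KO control over time (2), 0 to 1 for the short rescue (0) and 0 to 37 for the short overexpression (0). Short comparisons at 0 min could not be refitted so, with no residual df. Without the filter, the counts were 8 for WT transgene against control at 0 min, 20 for the rescue, 38 for the overexpression, 20 for it at 5760 min and 20 for the rescue minus the overexpression, and in the short course 13 for KO against WT at 0 min, 9 and 1 for the transgene lines of KO and WT at 0 min, 4 and 25 for WT and KO over time, 16 for the rescue and 1 for the overexpression; the cause was not tested. Limma on log2(TPM + 1), chosen after seeing the data, gave 1 for WT transgene against control, 1 for the rescue, 1 for the overexpression and for it at 5760 min, 0 for the rescue minus the overexpression, and 8 and 51 for the short KO comparison at 0 min and as a mean. DESeq2 gave 3 for the rescue minus the overexpression and 1 for the short rescue, and library totals gave 6 at 5760 min. Without KO control 0 and 300 min replicate 1, 1 member was called in the short KO control over time.

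Over all genes, same-numbered libraries of a line correlated at a median of 0.01 in either course (-0.06 to 0.11 over 120 pairs and -0.08 to 0.15 over 528), so numbers were not taken to pair the libraries, although the members' share separated by number in the short KO lines. With the replicate block the counts were 2 for the rescue minus the overexpression, 4 for the short KO comparison at 0 min and 19 for the overexpression at 5760 min. With a replicate block within each line, which cannot be had for line comparisons, these were 4 for the rescue minus the overexpression, 8 and 33 for the short WT and KO controls over time, 1 and 4 for the short rescue and overexpression, and 21 at 5760 min.

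Single genes that turned sign were mostly those whose largest change was taken over several times. Without replicate 1 these were Rpl6 in the KO control (0.12; -0.13 without replicate 3) and Rps27l in the WT control (0.16). Without replicate 2 they were Rpl12 (0.04; -0.25 without replicate 1) and Rpl5 (0.03; -0.16 without replicate 1) in the short WT control and Rps16 in the WT control (0.21). Without replicate 3 they were Rps16 (0.25), Rps2 (0.17) and Rps27l (0.16) in the WT control and Rps2 in the KO control (-0.19; 0.22 without replicate 1). Rps27l in the WT control also turned without the filter (0.14), without WT control 1440 min replicate 3 (0.15) and, with Rps2 (0.16), when ribosomal protein genes were left out of TMM (0.16). On TPM, values over time turned for Rpl22l1 (-0.32), Rps2 (0.07), Rps20 (-0.23) and Rps7 (-0.12) in the WT control and Rplp0 (0.08), Rps20 (-0.15) and Rps27l (-0.30) in the KO control. At 2880 min they turned for Rpl22l1 (-0.21 in the WT control, -0.12 in the KO transgene), Rps20 (-0.20 in the WT transgene) and Rps27l (-0.26 in the WT control, -0.24 in the KO control, -0.18 in the KO transgene).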
